A study of Mus musculus with 9 samples.

Results

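The genes examined here make cholesterol, hold the pathway under control, or pass cholesterol out of the lysosome and into storage, and they were chosen by symbol. The list names 28 genes, of which 25 had a row among the 15434 genes of the deposited table, while Hmgcs1, Tm7sf2 and Npc2 were not analysed here. RNA was sequenced from macrophages of C57BL/6J mice, with 3 libraries each from testis, epididymis and brain. The labels name no further allele, and the cells were neither cultured nor treated. The brain cells are called microglia in the library names. All 9 libraries share the same sort for live CD45+ CD11b+ F4/80+ cells without Ly6C or CD11c, after enzyme digestion for 40 minutes. Each organ carries its own mouse number, the same for its 3 libraries, so organ and mouse cannot be told apart, and the labels mention pooling of testis and epididymis suspensions without saying how. Nothing in the labels says that the libraries of an organ came from separate animals, so the spread behind each p-value may be a technical one.

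Cells build cholesterol from acetyl-CoA through mevalonate, farnesyl diphosphate, squalene and lanosterol. The transcription factors SREBP-1 and SREBP-2, encoded by Srebf1 and Srebf2, switch this pathway on. SCAP escorts them from the endoplasmic reticulum to the Golgi, where they are cut and released, and the INSIG proteins hold SCAP back when sterol is plentiful. Macrophages also take in cholesterol with lipoproteins and engulfed cells. LIPA frees it from its esters inside the lysosome, NPC2 and NPC1 carry it out, and SOAT1 turns the surplus back into esters for storage.

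Sequencing depth in genes ran from 2727092 to 4458688 reads, and levels below are normalised reads, for which the authors scaled each library by a single factor. The microglia markers summed to between 15464 and 17859 in brain, 3430 and 4883 in epididymis, and 502 and 835.5 in testis. The 8 macrophage markers summed to between 12898 and 15238 in testis, 26612 and 30533 in epididymis, and 44513 and 49360 in brain. Among these 8 only Ptprc, Itgam and Adgre1 encode proteins used in the sort, so the sum is not a measure of the sorted proteins. Of the 8 genes, Itgam, Csf1r, Mertk and Cx3cr1 were called lower in testis than in each other organ. Itgam, Mertk and Cx3cr1 were also called lower in epididymis than in brain. Against brain others went the other way. Ptprc was called higher in testis and in epididymis than in brain, and Adgre1 higher in epididymis than in brain. In testis every Adgre1 value lay above brain and below epididymis, without a call in either comparison. Other cells left transcripts too. The 7 Leydig cell markers measured, out of 8 named, summed to between 1432 and 3752 in testis, 29.1 and 201 in epididymis, and 75.8 and 105 in brain, with Cyp17a1, Hsd3b1 and Hsd3b6 at 0 in every epididymis and brain library and Insl3 and Hsd17b3 at 0 in epididymis. The 7 spermatid markers summed to between 771 and 1847 in testis, 422 and 673 in epididymis, and 0 and 14.5 in brain, where Prm1, Tnp2, Odf1, Akap4 and Spaca1 were at 0. The 6 T and NK cell markers measured summed to between 540.3 and 850 in testis, 65.5 and 174 in epididymis, and 72.9 and 154 in brain. The 7 epididymal epithelium markers measured summed to between 446 and 534 in epididymis and to at most 16.2 in testis and 8.20 in brain. The 5 astrocyte markers measured summed to between 431 and 576 in brain, 71.0 and 162 in testis, and 4.31 and 143 in epididymis. The 4 neuron markers measured summed to between 146 and 272 in brain, 109 and 207 in testis, and 20.6 and 108 in epididymis. The oligodendrocyte and Sertoli cell sums overlapped between all organs. The part of any of these cells, or of the stress genes that follow, in the results below was not tested. The 10 dissociation stress genes summed to between 130223 and 147759 in testis, 43286 and 45492 in epididymis, and 57449 and 94617 in brain.

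The cholesterol genes were measured at moderate depth. Of 225 values, 18 were 0, and 16 of the 25 genes had reads in every library. Of the tested genes, 8 of 24 had at least 1 library at 0, against 38.7% of all genes tested. Per 10000 reads, the list took from 8.23 to 9.56 in testis, from 8.83 to 9.55 in epididymis and from 6.83 to 8.62 in brain. In all, 24 of the 25 reached 10 normalised reads in 3 libraries or more and were tested with limma over all 11766 genes that passed this filter. Only Mvd did not pass it. A gene was called where its Benjamini-Hochberg adjusted p was below 0.05. The median gene among the 24 varied within organs with a coefficient of variation of 55.8%, against 56.5% over all tested genes.

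Between testis and epididymis 1 of the 24 genes was called, Srebf2, which was higher in testis. The background was 4.39% of all tested genes called in this comparison, or 2.49% called higher in testis. Between testis and brain 2 of 24 were called, Srebf2 higher and Npc1 lower in testis, where the background was 11.7% (6.82% higher and 4.83% lower in testis). Between epididymis and brain none of 24 was called by limma, against a background of 4.79% (2.99% higher and 1.8% lower in epididymis). In that comparison 4 had an unadjusted p below 0.05, against 16.4% of all tested genes, and edgeR, DESeq2 and limma-voom on the recovered reads also called 0, with 3, 3 and 4 at an unadjusted p below 0.05. A moderated F test over the 3 organs called Srebf2 and Npc1, against a background of 11.4%. The share of the cholesterol genes called was thus not above the background in any comparison.

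**Figure D1:**
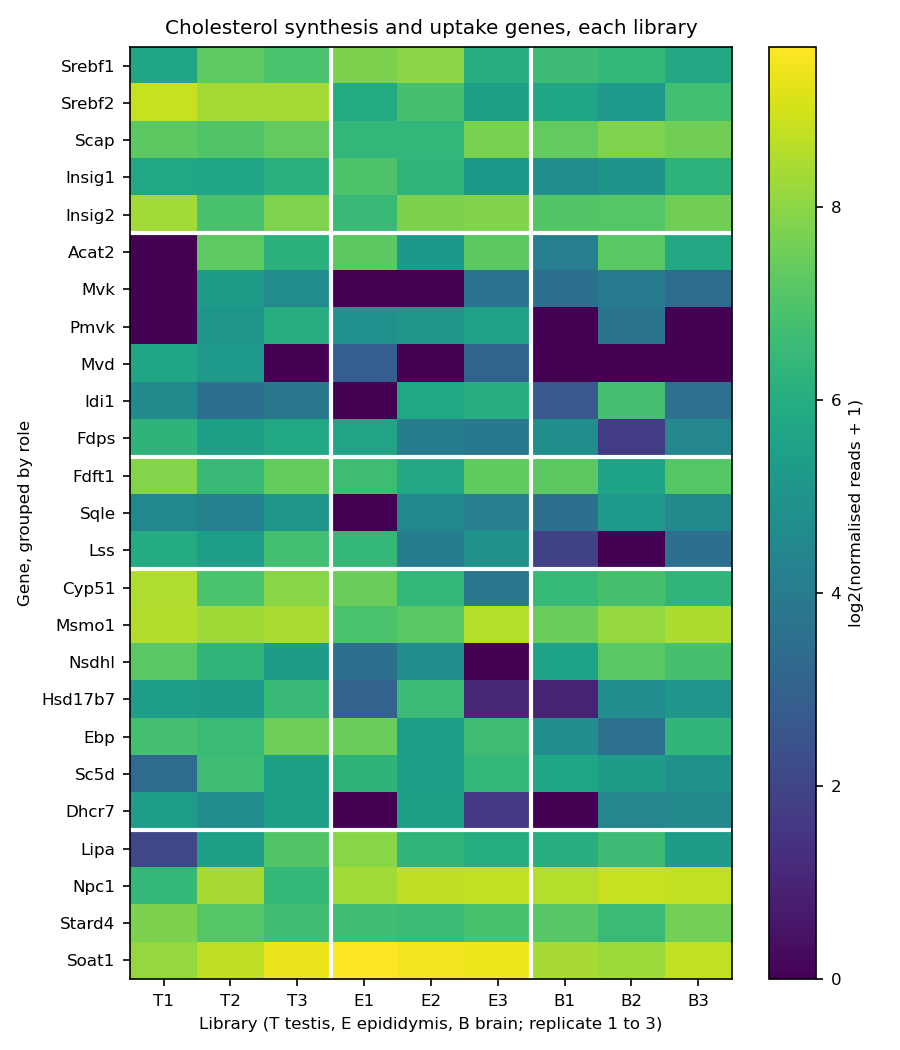
Level of each of the 25 measured genes (rows, grouped by role) in each of the 9 libraries (columns), as log2(normalised reads + 1). Srebf2 is bright in the 3 testis libraries, Npc1 is bright in epididymis and brain, Soat1 is brightest in epididymis, and the 18 darkest cells are values of 0.

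The control genes came first. Srebf2 (ENSMUSG00000022463.8, GRCm38 chromosome 15, 82147181 to 82205379, plus strand) encodes the factor that mainly drives cholesterol synthesis. It stood at 453, 330.4 and 326 normalised reads in the testis libraries. It stood at 58.2, 115 and 44.2 in epididymis and at 51.9, 35.7 and 105 in brain. Every testis library lay above every library of the other organs, while epididymis and brain overlapped. The fitted log2 fold was 2.43 (SE 0.57) over epididymis, with a limma adjusted p of 0.025, and 2.63 (SE 0.57) over brain, with a limma adjusted p of 0.0067. As a fold this is 5.41 over epididymis and 6.21 over brain on the log2(value + 1) scale. Between epididymis and brain the log2 fold was 0.20, with a 95% interval from -1.02 to 1.42. Fewer cells of a type and less RNA per cell cannot be told apart in such bulk libraries.

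The testis call of Srebf2 against brain was made in all 18 alternative settings. Against epididymis it was made in 12 of 18, with adjusted p from 0.0024 (DESeq2) to 0.1 (limma without testis replicate 1) over the settings. It was lost without the variance trend (adjusted p = 0.081) and when testis replicate 1 (0.1), testis replicate 2 (0.081), testis replicate 3 (0.072), epididymis replicate 1 (0.063) or epididymis replicate 3 (0.073) was left out. The sign held in each of these. The Leydig marker sum, which is also higher in testis, was 2032, 1432 and 3752 in testis replicates 1, 2 and 3. The spermatid sum was 1009, 771 and 1847 in the same libraries. The T and NK cell sum was 842, 850 and 540.3.

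Srebf1, whose products drive fatty acid synthesis more than cholesterol synthesis, did not follow Srebf2. It stood at 50.7, 153 and 121 in testis, 214, 249.5 and 63.6 in epididymis, and 96.5, 83.6 and 56.0 in brain. The organs overlapped, and no comparison was called. Within a library, where the scaling between libraries drops out, the ratio of Srebf2 to Srebf1 normalised reads, not corrected for length, was 8.94, 2.15 and 2.70 in testis. In epididymis the same ratio was 0.272, 0.462 and 0.695, and in brain 0.538, 0.427 and 1.87. The log2 ratio was 1.89 ± 1.09 (SD, n = 3) in testis, -1.16 ± 0.67 in epididymis and -0.40 ± 1.13 in brain. All 3 testis ratios lay above those of both other organs, which overlapped. The pair was chosen after its values were seen. An exact permutation test of 3 against 3 libraries gave p = 0.1 for testis against each other organ. That is the smallest p such a test can give, so no conclusion is drawn from it.

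**Figure D2:**
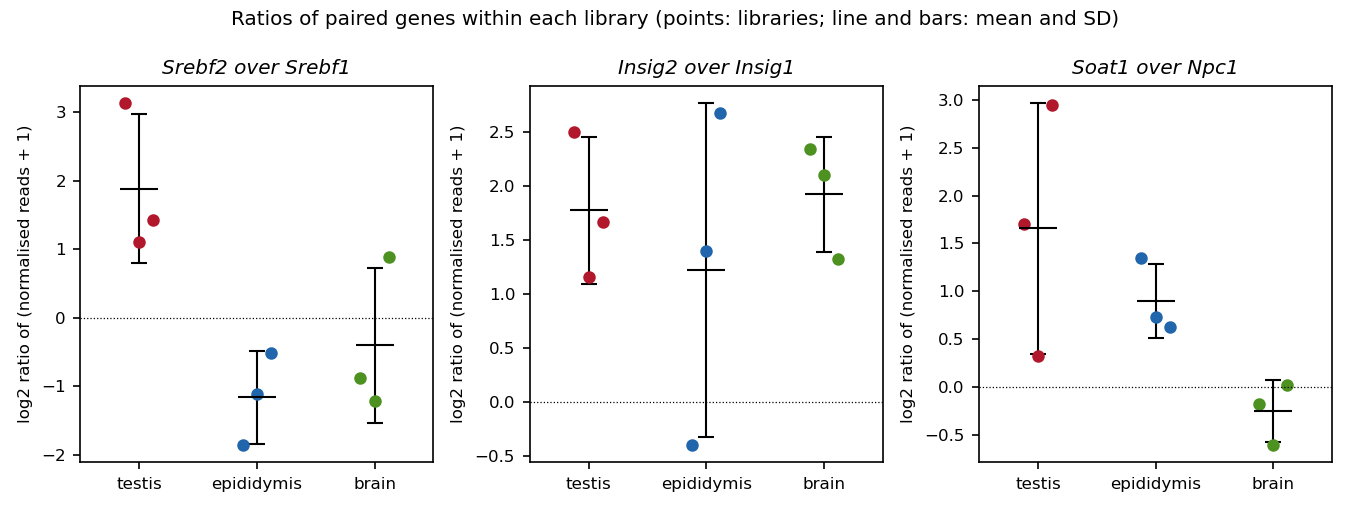
Log2 ratio of (normalised reads + 1) between the genes of 3 pairs within each library, by organ, with points for libraries and a line with bars for mean and SD. Srebf2 over Srebf1 is above 0 in the 3 testis libraries and below 0 in the 3 epididymis libraries, Insig2 over Insig1 overlaps across organs, and Soat1 over Npc1 is lowest in brain.

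The sequences before the start sites of both SREBP genes, and of Lss and Ebp described further on, are shown so that the letters searched for can be seen in the SREBP genes themselves and in 2 enzyme genes taken as examples from those with testis libraries wholly above brain. They are from RefSeq on GRCm38.p6, are read 5′ to 3′ on the gene's strand, and lie outside annotated exons of the gene. Capitals mark a CCAAT box on either strand (CCAAT or ATTGG), which binds NF-Y, or the letters TCACNCCA, the first 8 bases of a 9-base sterol regulatory element.
Srebf2, chr15:82147091-82147180, plus strand: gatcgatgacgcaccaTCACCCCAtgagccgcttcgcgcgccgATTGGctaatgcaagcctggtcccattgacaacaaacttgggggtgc
Srebf1 internal start, chr11:60210472-60210561, minus strand: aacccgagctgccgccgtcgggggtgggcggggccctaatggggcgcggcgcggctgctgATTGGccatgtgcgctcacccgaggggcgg
Srebf1 upstream start, chr11:60222701-60222790, minus strand: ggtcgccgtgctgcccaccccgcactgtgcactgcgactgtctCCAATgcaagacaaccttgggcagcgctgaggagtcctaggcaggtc
Lss, chr10:76531500-76531587, plus strand: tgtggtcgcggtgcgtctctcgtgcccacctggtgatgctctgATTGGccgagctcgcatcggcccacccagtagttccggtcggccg
Ebp, chrX:8193521-8193610, minus strand: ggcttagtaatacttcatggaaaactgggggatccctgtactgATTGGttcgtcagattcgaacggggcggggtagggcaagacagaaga
In the Srebf2 stretch the TCACNCCA letters begin at position -162 from the start site and an inverted CCAAT box at -135. Neither Srebf1 stretch holds TCACNCCA. Sterol regulatory elements spelled with other letters were not searched, so their absence is not shown.

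Promoter windows of 300 bases, 250 before and 50 after each start, were present for 23 of the 28 genes. On either strand, CCAAT was found in 21 of the 23 genes, against 41.1% of all 27025 genes with a window. Genes can have more than 1 window, and by window it was found in 22 of 31 (71.0%), against 37.4% of all 32851. The 9-base form TCACNCCAC of the sterol element was found in 1 of the 23, Hmgcs1, against 1.44% of genes. Its first 8 bases, TCACNCCA, a form searched after the Srebf2 letters had been seen, were found in Srebf2, Hmgcs1 and Msmo1, against 4.97% of genes. The E-box CACGTG was found in 5 of the 23, against 8.09%. These are matches of letters in a window and say nothing on whether a factor binds.

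The remaining control genes overlapped between organs in every pairwise comparison. Scap stood at 147 ± 14.6 in testis, 125 ± 72.5 in epididymis and 188 ± 29.0 in brain (mean ± SD of 3 libraries, as below). Insig1, itself a target of the SREBPs, stood at 58.6 ± 9.35, 79.0 ± 44.1 and 43.8 ± 26.9. Insig2, which is less dependent on the SREBPs, stood at 218 ± 99.3, 177 ± 73.0 and 153 ± 30.6. The limma adjusted p of these 3 genes lay at 0.515 or above. For Insig2 the 95% interval of the log2 fold ran from -0.75 to 1.33 between testis and epididymis and from -0.63 to 1.45 between testis and brain. Differences within these intervals are not excluded. The ratio of Insig2 to Insig1 normalised reads, not corrected for length, overlapped between organs.

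Enzymes of the mevalonate arm were low and uneven, and none was called. Acat2 makes acetoacetyl-CoA, Mvk and Pmvk phosphorylate mevalonate, Mvd removes its carboxyl group, Idi1 isomerises the resulting unit and Fdps joins these units to farnesyl diphosphate. Acat2 stood at 0, 153 and 73.5 in testis, 148, 34.7 and 149 in epididymis, and 16.4, 143 and 55.1 in brain, so that the libraries of an organ differed more than the organs. Mvk was at 0, 39.6 and 23.9 in testis, at 0, 0 and 11.9 in epididymis, and at 10.9, 14.5 and 9.78 in brain. Pmvk was at 0, 33.1 and 63.3 in testis, at 28.2, 33.8 and 45.3 in epididymis, and at 0, 12.3 and 0 in brain. The epididymis values of Pmvk all lay above those of brain (log2 fold 3.93, SE 1.78, limma adjusted p = 0.28).

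Testis replicate 1 thus had no read of Acat2, Mvk or Pmvk, in a library of 3383929 reads. Mvd was at 50.7, 35.5 and 0 in testis, at 6.36, 0 and 7.55 in epididymis, and had no read in brain, which puts the testis mean at least 9.87-fold higher than a floor of 3 reads per brain library, for counting error only. Mvd was not tested. Idi1 ranged from 10.5 to 22.8 in testis, from 0 to 66.8 in epididymis and from 5.46 to 107 in brain. Fdps stood at 77.6, 44.4 and 53.9 in testis, 48.2, 15.9 and 14.0 in epididymis, and 26.4, 2.23 and 21.3 in brain. Its testis values lay above all of brain (log2 fold 2.21, SE 1.27, limma adjusted p = 0.32) and overlapped with epididymis.

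From squalene on, more genes had their highest level in testis. Fdft1 makes squalene, Sqle oxidises it and is a slow step of the pathway, and Lss closes the ring to lanosterol. Lss stood at 61.1, 40.4 and 104 in testis, 85.5, 15.9 and 30.2 in epididymis, and 2.73, 0 and 10.7 in brain. Both reproductive organs lay wholly above brain. The log2 fold over brain was 4.20 (SE 1.39) in testis, with a limma adjusted p of 0.065, and 3.35 (SE 1.39) in epididymis, with 0.23. The testis value passed in 4 of 18 alternative settings, DESeq2 among them (adjusted p = 0.017), while edgeR gave 0.16. Fdft1 stood at 161 ± 69.7, 104 ± 50.8 and 111 ± 54.8 and Sqle at 24.3 ± 8.09, 12.9 ± 11.4 and 23.3 ± 13.0 in testis, epididymis and brain, and both overlapped between organs. Exons of Fdft1 overlap those of Ctsb, a gene on the opposite strand, by 774 bases, and the kit does not mark strand.

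Lanosterol is turned into cholesterol by a series of enzymes, 7 of which were tested. Cyp51, the lanosterol demethylase, stood at 362, 119.6 and 246 in testis, 177, 83.5 and 12.9 in epididymis, and 87.4, 115 and 78.2 in brain. The testis values lay above brain but overlapped with epididymis, and the log2 fold over epididymis was 1.90 (SE 0.79, limma adjusted p = 0.22). Exons of Cyp51 overlap those of Akap9 on the opposite strand by 166 bases. Nsdhl, a sterol dehydrogenase that helps remove methyl groups, was lowest in epididymis. It stood at 146, 79.2 and 38.5 in testis, 10.9, 26.3 and 0 in epididymis, and 47.4, 143 and 115 in brain.

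Every epididymis value of Nsdhl lay below those of both other organs. The log2 fold was 3.49 (SE 1.26) for testis over epididymis and -3.76 (SE 1.26) for epididymis over brain, with limma adjusted p of 0.15 and 0.11. Neither was called. Ebp, the sterol isomerase, stood at 109.7, 95.3 and 184 in testis, 180.0, 41.3 and 99.2 in epididymis, and 25.5, 11.1 and 80.0 in brain. Testis lay above brain (log2 fold 2.08, SE 0.84, limma adjusted p = 0.14). Hsd17b7 and Dhcr7, the last a reductase of the final step, also lay above brain in all 3 testis libraries, at 56.7 ± 28.7 against 19.5 ± 16.4 and at 36.3 ± 9.15 against 14.5 ± 12.5. Their limma adjusted p was 0.48 and 0.51.

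Msmo1, a methyl oxidase of the same series, was among the steadier enzymes in testis, at 374, 308 and 345. It stood at 119, 144 and 384 in epididymis and at 175, 278 and 354 in brain. Sc5d, a desaturase, stood at 51.3 ± 45.8 in testis, 67.9 ± 23.4 in epididymis and 39.8 ± 9.96 in brain. Neither was called in any comparison.

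**Figure D3:**
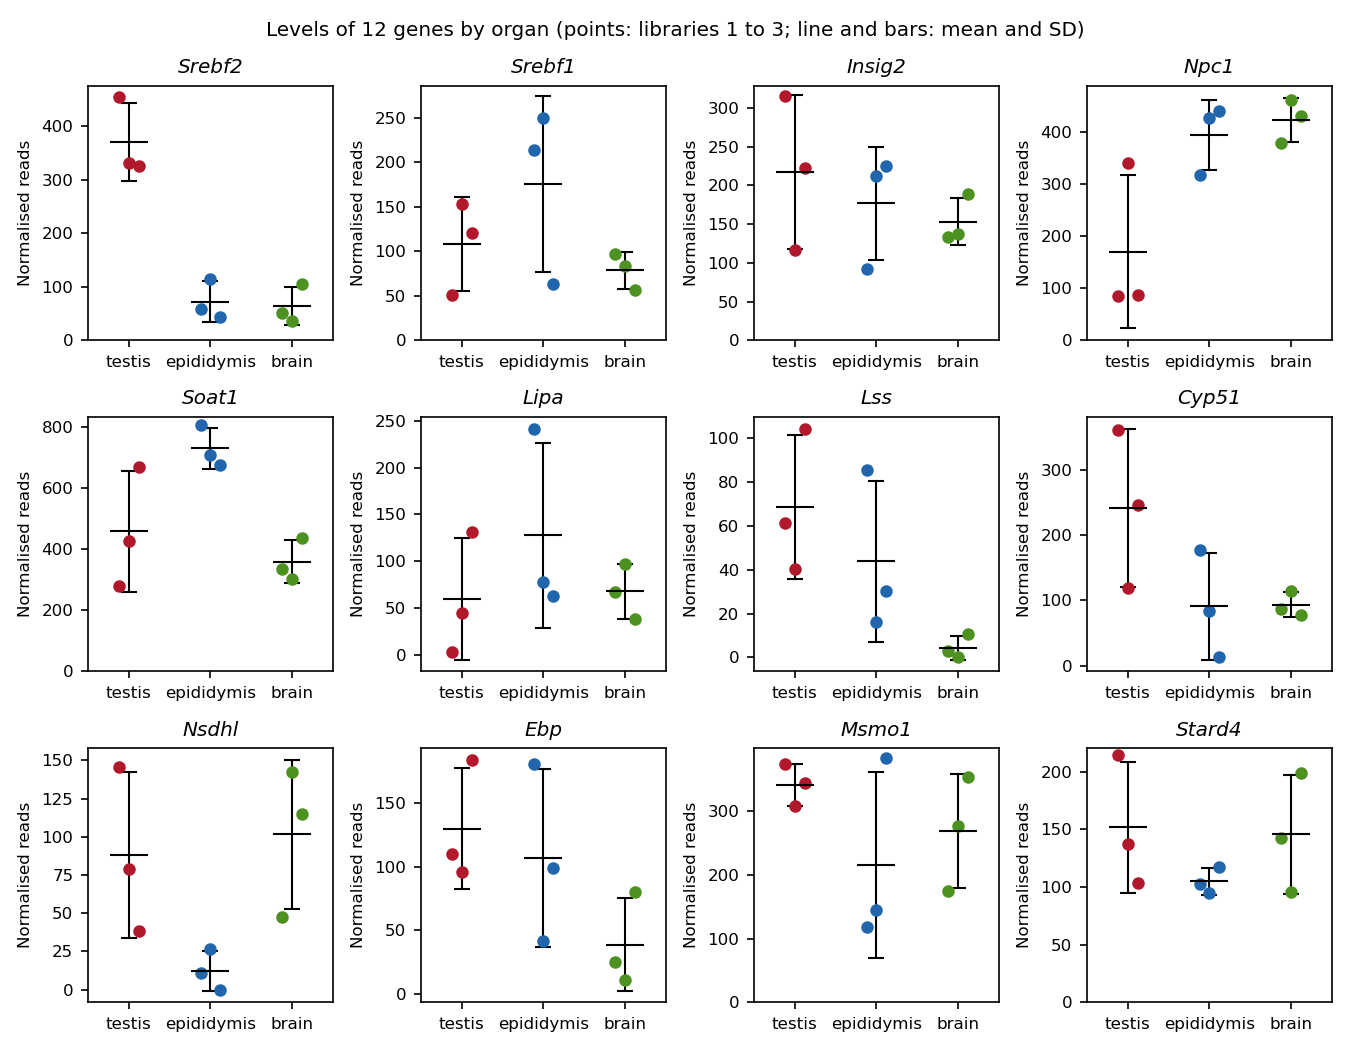
Normalised reads of 12 of the genes by organ, with points for libraries 1 to 3 and a line with bars for mean and SD. Srebf2 separates testis from both other organs, Npc1 has 2 low testis libraries and 1 near the other organs, Lss is lowest in brain and Nsdhl lowest in epididymis.

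Lysosomal exit and storage followed. Npc1, the membrane protein that passes cholesterol out of the lysosome, stood at 84.9, 339 and 86.3 in testis. It stood at 316, 427 and 439 in epididymis and at 378, 461 and 430.2 in brain. Testis replicates 1 and 3 were low, while replicate 2 lay inside the epididymis range and below brain. The log2 fold of testis was -1.63 over brain (SE 0.46, limma adjusted p = 0.031) and -1.52 over epididymis (SE 0.46, limma adjusted p = 0.081). Between epididymis and brain the log2 fold was -0.11, with a 95% interval from -1.09 to 0.86.

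The Npc1 call against brain was made in 9 of 18 alternative settings, with adjusted p from 0.0013 to 0.15. It was lost without the variance trend (0.15), with only these organs fitted (0.069), with edgeR (0.11) and DESeq2 (0.084), and without testis replicate 1 (0.12), testis replicate 3 (0.12), brain replicate 1 (0.08), brain replicate 2 (0.11) or brain replicate 3 (0.089). Without testis replicate 2 the adjusted p was 0.0013 against brain and 0.0064 against epididymis, where the log2 folds became -2.29 and -2.17. The sign held in each of these. Exons of Npc1 overlap those of Rmc1 on the opposite strand by 511 bases.

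Soat1, which esterifies cholesterol for storage, had the lowest coefficient of variation within organs among the 25 genes, at 24.6%. It stood at 278, 427 and 669 in testis, 805, 709 and 677 in epididymis, and 336, 303 and 438 in brain. Every epididymis library lay above every library of the other organs. The log2 fold of epididymis was 1.04 over brain (SE 0.32, limma adjusted p = 0.081), and that of testis over epididymis was -0.76 (SE 0.32, limma adjusted p = 0.23). Over brain it passed with only these organs fitted (adjusted p = 0.046) and without testis replicate 1 (0.042), and in none of the other 16 settings. The ratio of Soat1 to Npc1 normalised reads, not corrected for length, lay between 1.26 and 7.75 in testis, between 1.54 and 2.55 in epididymis, and between 0.657 and 1.02 in brain. Both reproductive organs lay above brain in this ratio, which was also chosen after its values were seen. The same exact permutation test gave p = 0.1 for each of them against brain. That is again its smallest possible value, so no conclusion is drawn from it.

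Lipa, the lysosomal acid lipase, varied most within organs among these 4 genes, with a coefficient of variation of 83.3%. It stood at 3.11, 44.4 and 131 in testis, 242, 77.9 and 62.5 in epididymis, and 67.4, 97.0 and 38.2 in brain, and all organs overlapped. The testis replicate with almost no Lipa was replicate 1, which also had the lowest Soat1. Stard4, a soluble sterol carrier, differed little between organs, at 152 ± 56.8 in testis, 105 ± 11.6 in epididymis and 146 ± 51.7 in brain. Its 95% interval for testis over epididymis ran from -0.58 to 1.52 on the log2 scale.

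**Figure D4:**
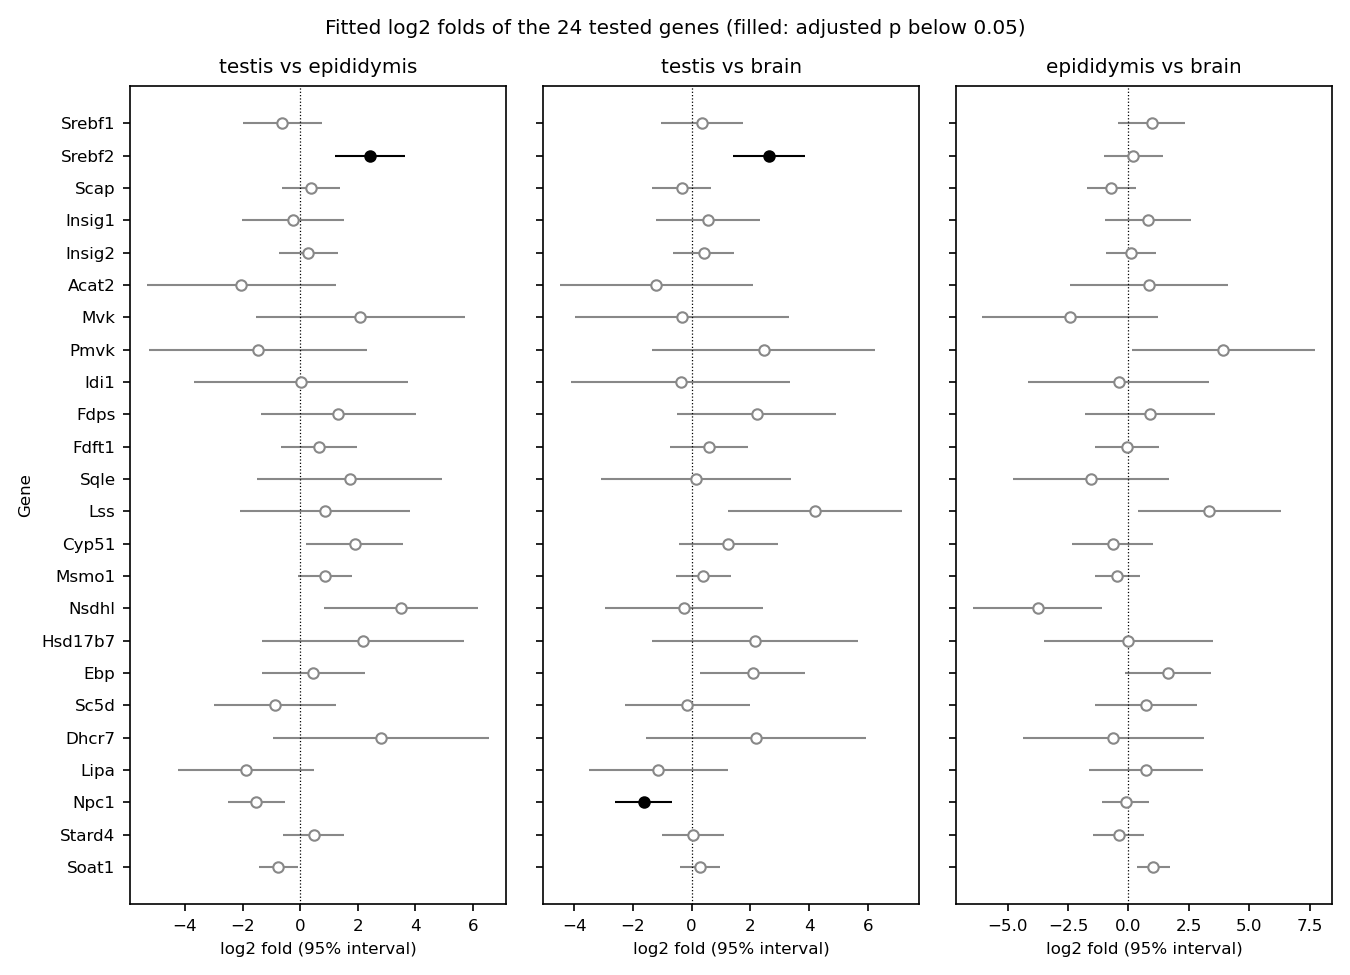
Fitted log2 fold of each of the 24 tested genes in the 3 pairwise comparisons, with 95% intervals, filled where the limma adjusted p was below 0.05. The filled points are Srebf2 in both comparisons of testis and Npc1 between testis and brain, and most intervals of the low enzymes cross 0.

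Described as a group, the genes were shifted toward testis in their medians. The median log2 fold of the 24 was 0.46 for testis over epididymis, against 0.10 over all tested genes, and 0.37 for testis over brain, against -0.07. After rescaling of libraries to the same total these medians were 0.29 against -0.05 and 0.15 against -0.29. For epididymis over brain the median was 0.06, against -0.13. A fold above 0 was fitted for 16 of 24 in testis over epididymis (53.5% of all tested genes), 16 of 24 in testis over brain (47.7%) and 12 of 24 in epididymis over brain (44.9%). Of the 25 measured, 14 had their highest mean in testis, 7 in epididymis and 4 in brain, where 36.9% of all tested genes had it in testis.

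Counting separation alone, 3 of 24 genes had all libraries of testis apart from all of epididymis (Srebf2 and Nsdhl higher, Soat1 lower), against a background of 19.8% (11.0% higher, 8.8% lower). Between testis and brain 8 of 24 were apart, against 30.8%. Of these, 7 were higher in testis (Srebf2, Fdps, Lss, Cyp51, Hsd17b7, Ebp and Dhcr7), where the background for higher alone was 15.9%, and Npc1 was lower, where it was 14.9%. Between epididymis and brain 4 of 24 were apart (Pmvk, Lss and Soat1 higher, Nsdhl lower), against 22.0% (10.5% higher, 11.5% lower). The counts in either direction together were near the background or below it.

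By role, the 7 tested enzymes after lanosterol had the highest median log2 fold for testis over epididymis, at 1.90, and 6 of the 7 had a fold above 0. The 4 genes of lysosomal exit and storage had a median of -1.14, with 1 of 4 above 0, and the 5 tested enzymes of the mevalonate arm had 0.03. For testis over brain the same medians were 1.25, -0.54 and -0.33. These medians depend on the method. The 1.90 is the fold of Cyp51, for which edgeR gave 1.39. By edgeR the middle gene of these 7 was not Cyp51 but Hsd17b7, at 0.71. The -0.33 is the fold of Mvk, for which edgeR gave 0.84, with the opposite sign. Summed per library, the 16 synthesis enzymes measured reached 1547, 1232 and 1519 normalised reads in testis, 987, 708 and 1083.5 in epididymis, and 607.5, 995 and 978 in brain. All testis sums lay above those of the other organs, which overlapped. The normalised totals of whole libraries were also higher in testis, from 3503441 to 3601949, against 2927618 to 3198069 elsewhere. The sums were not rescaled for this. The 4 genes of lysosomal exit and storage summed to 581, 948 and 990.0 in testis, 1466, 1308.5 and 1296 in epididymis, and 924, 958 and 1106 in brain, so that epididymis was highest. These sums are led by the most abundant genes, chiefly Msmo1, Cyp51, Npc1 and Soat1, and were not tested.

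**Figure D5:**
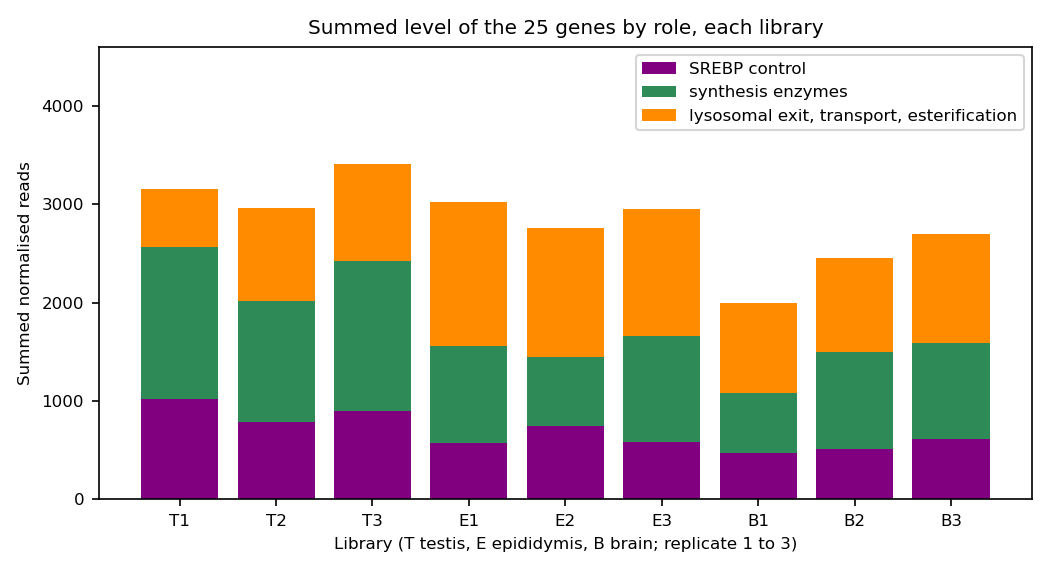
Summed normalised reads of the 25 measured genes in each library, stacked by role from an axis that starts at 0. The synthesis enzymes take between 1232 and 1547 in testis and at most 1083.5 elsewhere, while lysosomal exit, transport and esterification take between 1296 and 1466 in epididymis. Sums are not rescaled to the same library total, and totals were higher in testis.

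Levels can be compared between genes only per length of transcript, here per kilobase of merged GENCODE M21 exons, which may differ from the authors' gene models. In testis the highest levels per kilobase were those of Insig2 (62.7 ± 28.6 normalised reads per kilobase), Ebp (56.1 ± 20.6), Msmo1 (55.7 ± 5.38), Cyp51 (55.0 ± 27.5), Srebf2 (51.5 ± 10.1) and Soat1 (46.8 ± 20.2), and these did not differ beyond their spread. In epididymis Soat1 led at 74.6 ± 6.83 per kilobase, ahead of Insig2 at 50.9 ± 21.02. In brain Insig2 (44.1 ± 8.81), Msmo1 (43.7 ± 14.6), Npc1 (37.4 ± 3.73) and Soat1 (36.7 ± 7.19) lay within each other's spread.

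Other genes of the pathway were taken from 8 lists of 95 genes, of which 78 were tested. In testis against epididymis 2 of the 78 were higher and 3 lower, in testis against brain 5 were higher and 4 lower, and in epididymis against brain 4 were higher. These were 6.41%, 11.5% and 5.13% of the 78, beside backgrounds of 4.39%, 11.7% and 4.79%. Of these 18 limma calls, edgeR also made 10, DESeq2 16 and limma-voom 16. With 1 library left out in turn, 8 of the 18 were made every time, and the other 10 in 1 to 6 of 9 such fits. None of the 12 partners of SREBP processing, the 10 isoprenoid genes or the 5 other late sterol enzymes was called in any comparison by limma, edgeR, DESeq2 or limma-voom. At an unadjusted limma p below 0.05 the partners had 2, 3 and 0 genes in the comparisons of testis with epididymis, testis with brain and epididymis with brain, the isoprenoid genes 0, 0 and 1, and the late enzymes 3, 1 and 0, where 17.5%, 23.4% and 16.4% of all tested genes had one. The median log2 fold of the 12 SREBP partners was 0.14 for testis over epididymis and 0.00 for testis over brain.

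Of 12 fatty acid genes controlled by SREBP-1, Me1 and Elovl5 were called higher in testis than in epididymis. Me1, the cytosolic malic enzyme that makes NADPH, stood at 381 ± 108 in testis and had no read in epididymis or brain. The testis mean was at least 130.3-fold higher than the floor of 3 reads per library in epididymis (limma adjusted p = 0.0017). It was at least 130.8-fold higher than the same floor in brain. Both bounds are for counting error only, not for the spread between testis libraries. Elovl5, a fatty acid elongase, stood at 241 ± 18.1, 63.3 ± 19.99 and 99.6 ± 23.7 in testis, epididymis and brain, and its call (limma adjusted p = 0.039) was lost with edgeR (0.063) and limma-voom (0.068). Thrsp was called lower in testis than in brain, at 0.855 ± 1.48 against 72.0 ± 18.3, a call (limma adjusted p = 0.042) that edgeR did not make (0.12). The Leydig markers, with Cyp17a1, Hsd3b1 and Hsd3b6 likewise at 0 in epididymis and brain, moved with Me1, and their part in it was not tested.

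Of 10 uptake receptors and adaptors tested, Dab2 was called higher and Lrp1 lower in testis than in brain. Dab2, an adaptor for endocytosis of lipoprotein receptors, stood at 1993 ± 428 in testis, 1073 ± 86.4 in epididymis and 60.3 ± 37.2 in brain, and was called higher in both reproductive organs than in brain (limma adjusted p = 1e-06 and 1.8e-05). Lrp1, a large scavenging receptor of the same family, had the reverse order at 769 ± 184.5, 1268 ± 48.5 and 2125 ± 57.8, and was called lower in testis than in brain (limma adjusted p = 0.00017).

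Among 17 genes of sterol transfer, 2 lysosomal membrane proteins were called lower in testis than in epididymis. Scarb2, which binds cholesterol in the lysosomal membrane, stood at 597 ± 136, 1568 ± 33.2 and 1783 ± 279 in testis, epididymis and brain. It was called lower in testis than in epididymis (limma adjusted p = 0.0017) and than in brain (0.00018). Lamp1 stood at 762 ± 60.2, 1846 ± 196 and 1070.1 ± 154, called between epididymis and each other organ (limma adjusted p = 0.002 against testis and 0.038 against brain). Gramd1b, a carrier of sterol from the plasma membrane, was called higher in testis than in brain, at 312 ± 113 against 69.8 ± 15.8, and Stard5 lower, at 137 ± 119 against 799.8 ± 269.6. The Stard5 call (limma adjusted p = 0.04) was lost with edgeR (0.08) and DESeq2 (0.18), and that of Lamp1 against brain with edgeR (0.081).

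Of 6 ester storage genes, Nceh1, a hydrolase of cholesteryl esters in macrophages, and Plin2, a coat protein of lipid droplets, were called higher in epididymis than in brain. Nceh1 stood at 358 ± 80.5 against 47.8 ± 17.4 and Plin2 at 617 ± 183 against 214 ± 141, with limma adjusted p of 0.013 and 0.04, of which the second was lost with edgeR (0.085). Of 6 oxysterol and LXR genes, Cyp27a1 and Ch25h, which make oxysterols, were called higher in testis than in brain. Cyp27a1 stood at 96.8 ± 53.5 against 10.7 ± 16.9. Ch25h stood at 52.3 ± 30.5 in testis and had no read in brain. Its testis mean was at least 17.9-fold higher than the floor of 3 reads per library, for counting error only. Both calls (limma adjusted p = 0.041 for Cyp27a1 and 0.036 for Ch25h) were lost with edgeR (0.16 and 0.056), and that of Cyp27a1 also with limma-voom (0.07).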

How the data were processed

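The signal values are the authors' deposited normalised reads: per the submitters' processing notes CASAVA 1.8, Bowtie2 2.2.1, Partek 6.6, DESeq2 and mm10 were used. Roles of these tools, counting rule and annotation: not given in the sources used here. All values were whole multiples of 1 read within 1e-06 reads, so whole reads were recovered. Values were analysed as log2(value + 1) for genes with at least 10 in at least 3 libraries, with limma 3.58.1 in R 4.3.3, 1 mean per organ over 9 libraries, a variance trend with expression (degrees of freedom: 6 residual, 9.08 prior) and Benjamini-Hochberg adjustment over 11766 genes. Folds on this scale can understate or overstate changes of low genes, where a library near 0 weighs heavily. For Dhcr7 in testis over epididymis the log2 fold was 2.82, against 1.26 by edgeR. Intervals cover 95%. Alternatives included edgeR 4.0.16, limma-voom and DESeq2 1.42.0 on recovered reads. The fit was also run on simulated independent counts, with dispersions taken from these libraries, and read for testis against epididymis. Such a run cannot show whether libraries of an organ came from separate animals, so no conclusion is drawn from it. Members and lists were chosen with earlier results of these data known. The naming rule took all members, and the at most 2 largest called folds per list, direction and comparison. The ratios of gene pairs were chosen after their values were seen. Exons came from GENCODE M21 (GRCm38). Transcripts at least 95% identical to another gene's over 200 bases were found for 8 of the 28 genes, Acat2, Idi1, Fdps and Fdft1 among them, and shared exons for 10, so their levels are uncertain. 1 gene that the naming rule would take is not reported here by name or value, but is counted in its list.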

Additional observations from a re-analysis of the deposited data

How the results depend on the processing

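Of 24 genes tested, 1 was called between testis and epididymis, 2 with libraries rescaled to the same total (Npc1 added) and 0 without the variance trend. Between testis and brain 2 were called, and 1 with only these organs fitted or with edgeR. Between epididymis and brain 0 were called, and 1 (Soat1) with only these organs fitted. Among the 3 organs 2 were called, and 1 without the variance trend, with edgeR or with DESeq2. Leaving out 1 library gave 0 to 1, 1 to 2, 0 to 1 and 0 to 2 calls in that order. The other settings kept these counts within 1.5 times, but not always the same genes. Between testis and brain, DESeq2 and the fit without the variance trend called Srebf2 and Lss, not Npc1. Without testis replicate 2, the 1 call between testis and epididymis was Npc1, lower in testis, and Srebf2 was not called. With 1 library left out, log2 folds crossed 0 in 25 of 72 pairs of gene and comparison, over 20 genes, none of them a called pair. Among the genes described most fully these were Ebp in testis over epididymis (-0.10 to 0.95), Nsdhl (-0.73 to 0.22) and Soat1 (-0.042 to 0.59) in testis over brain, and Srebf2 (-0.19 to 0.62), Cyp51 (-1.44 to 0.40) and Npc1 (-0.20 to 0.037) in epididymis over brain. The cause was not tested. Over all tested genes, calls between testis and epididymis were 516 (293 higher, 223 lower in testis), but 227 higher and 307 lower after rescaling, 223 and 256 after quantile normalization, 192 in all without the variance trend, 250 with only these organs fitted, 788 by DESeq2, and 301, 278 and 293 without testis replicate 2, epididymis replicate 2 and epididymis replicate 3. Between testis and brain they were 1371 (803 higher, 568 lower), but 654 higher and 772 lower after rescaling, 837 without the trend, and 827 and 889 without brain replicates 1 and 2. Between epididymis and brain they were 564, but 306 without the trend, 910.0 by DESeq2, and 320.0 and 327 without brain replicates 1 and 2. No paired analysis was possible because the labels give no replicate number shared between organs.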
